A study of Mus musculus with 6 samples.

Results

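Neurons release transmitter when a synaptic vesicle fuses with the presynaptic membrane. Fusion is driven by SNARE proteins, with VAMP2 on the vesicle and syntaxin-1 and SNAP-25 on the plasma membrane. Munc13 and complexin prepare and hold the SNARE complex, synaptotagmins trigger it when calcium enters, and the ATPase NSF takes it apart again. RIM, Bassoon and Piccolo build the active zone where vesicles dock, and synapsins hold the reserve of vesicles behind it.

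The genes of this machinery were taken by symbol: synaptotagmins and synaptotagmin-like genes, syntaxins and syntaxin-binding genes, SNAP and VAMP genes, complexins, RIM and UNC13 genes, synapsins, SV2, DOC2 and synaptogyrin genes, and *Nsf*, *Syp*, *Bsn* and *Pclo*. Of 21667 named genes, 85 matched. No measured value entered this choice, and the pattern also takes in *Snap91*, which encodes the clathrin assembly protein AP180 and no SNARE. PolyA RNA of the somatosensory cortex was sequenced in 3 control mice (*Mef2c*fl/fl, without Cre) and 3 *Mef2c* cKO mice (*Mef2c*fl/fl; Emx1-Cre), all adult males of a mixed SVeV-129; C57BL/6J strain. Replicate 1 of each genotype was 14 weeks old and replicates 2 and 3 were 12 weeks old. Both genotypes carry the floxed alleles. Emx1-Cre acts in most, but not all, excitatory neurons of cortex and hippocampus and in part of the forebrain glia, but not in interneurons. Cells of other origin and cells that Cre misses therefore keep an intact gene. The whole reads behind the deposited RPKM values were recovered, and levels are given as CPM, the reads of a gene per 1000000 reads assigned to genes in that mouse. The totals were between 19326365 and 54128334 reads per mouse.

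*Mef2c* itself was higher in the mice labelled *Mef2c* cKO, at 1231, 1276 and 1468 CPM against 800.3, 772 and 800.2 CPM in controls, with a log2 fold change of 0.74 ± 0.07 (SE; limma, adjusted p = 0.000177). Reads summed over the whole gene include exons outside the floxed part, so this value does not check the genotypes, and every direction below rests on the labels.

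Of the 85 genes, 76 had enough reads to be tested. In *Mef2c* cKO cortex 15 of them had a decreased expression level and 7 an increased one, at an adjusted p under 0.05 and a log2 fold change beyond 0.3 in size. Among all 14607 genes tested, 7.78% were decreased and 5.88% were increased, and the corresponding shares of the release genes were 19.7% and 9.21%. For 25 of the 76 genes the highest *Mef2c* cKO mouse lay under the lowest control, and for 18 the lowest *Mef2c* cKO mouse lay over the highest control, whereas 17.6% and 16.3% of all genes were separated in this way. The median log2 fold change was -0.02 over the 76 genes and 0.01 over all genes, with release genes on both sides of 0. The summed level of the 85 genes was 21423, 21893 and 20328 CPM in controls and 21328, 22204 and 21881 CPM in *Mef2c* cKO mice, and these ranges overlap. The 15 decreased genes together went from 2937, 2978 and 2881 CPM to 1926, 1968 and 1981 CPM, and the 7 increased genes from 1639, 1846 and 1615 CPM to 2545, 2749 and 2817 CPM. On the deposited RPKM values themselves limma called 0 of 61 testable release genes, with 7 at an unadjusted p under 0.05. Over all 7974 genes tested on those values 5 were decreased and 9 increased, so the 0 is not particular to the release genes. Those values were divided by lengths that differ between the mice for the same gene. In whole tissue, fewer cells of a type and less RNA per cell cannot be told apart.

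**Figure D1:**
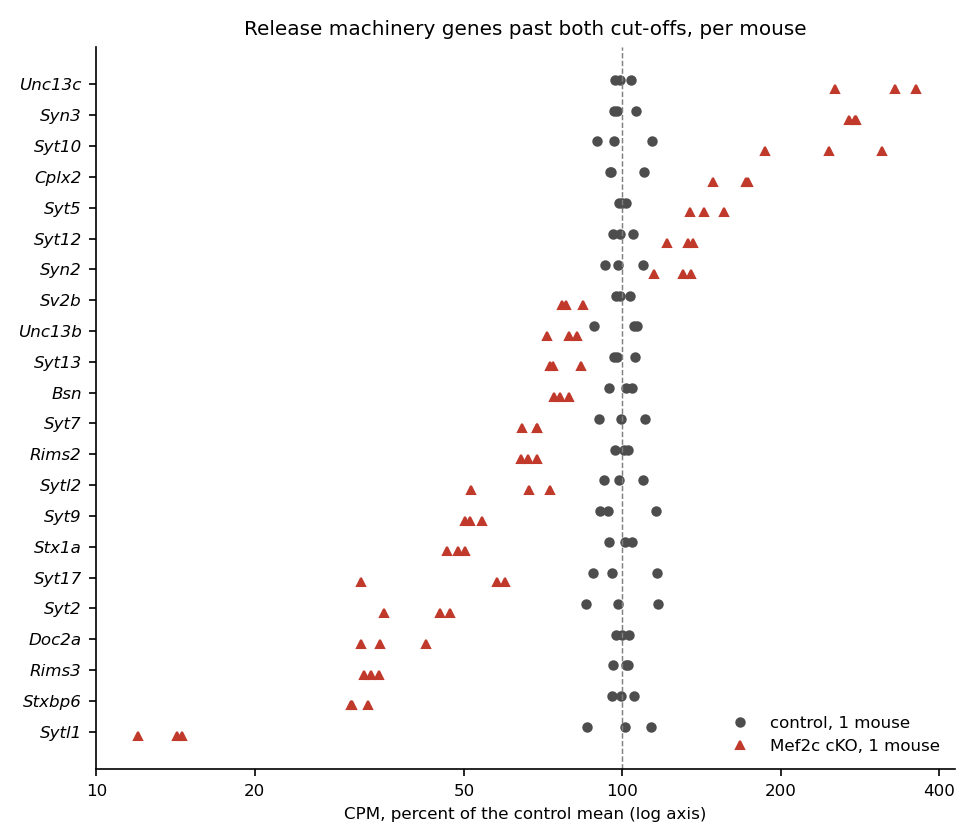
Level of the 22 genes past both cut-offs in each of the 6 mice, as a percentage of the mean of the 3 control mice (log axis), with 1 point per mouse and genes ordered by fold change. For the 15 decreased genes every triangle (*Mef2c* cKO) lies left of every circle (control), and for the 7 increased genes every triangle lies right of them.

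Of 15 core neuronal release genes 4 were called, *Stx1a* and *Bsn* lower and *Cplx2* and *Syn2* higher in *Mef2c* cKO mice. *Stx1a* (chr5:135499352-135526970 in mm9, plus strand) encodes syntaxin-1A, the plasma membrane SNARE of neurons. It was at 398, 411 and 371 CPM in control mice and at 192, 197 and 183 CPM in *Mef2c* cKO mice, or 48.5% of the control mean, with no overlap between genotypes. Its log2 fold change was -1.04 ± 0.06 (SE), with adjusted p = 6.94e-06.

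*Snap25*, the other plasma membrane SNARE and the most abundant per kilobase of exon of the release genes with an annotated place, was at 3077, 3218 and 2759 CPM in controls and at 3203, 3476 and 3245 CPM in *Mef2c* cKO mice (log2 fold change 0.13 ± 0.08, adjusted p = 0.321). The vesicle SNARE *Vamp2* was at 554, 557 and 521 CPM against 609.6, 554 and 579.8 CPM (0.09 ± 0.06, adjusted p = 0.348). Both genes therefore had overlapping genotypes. *Nsf* was at 757, 731 and 736 CPM against 849, 879.6 and 954 CPM, and was past the adjusted p (0.0177) but under the fold change cut-off at 0.27 ± 0.06, a pass kept in 11 of 17 alternatives.

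**Figure D2:**
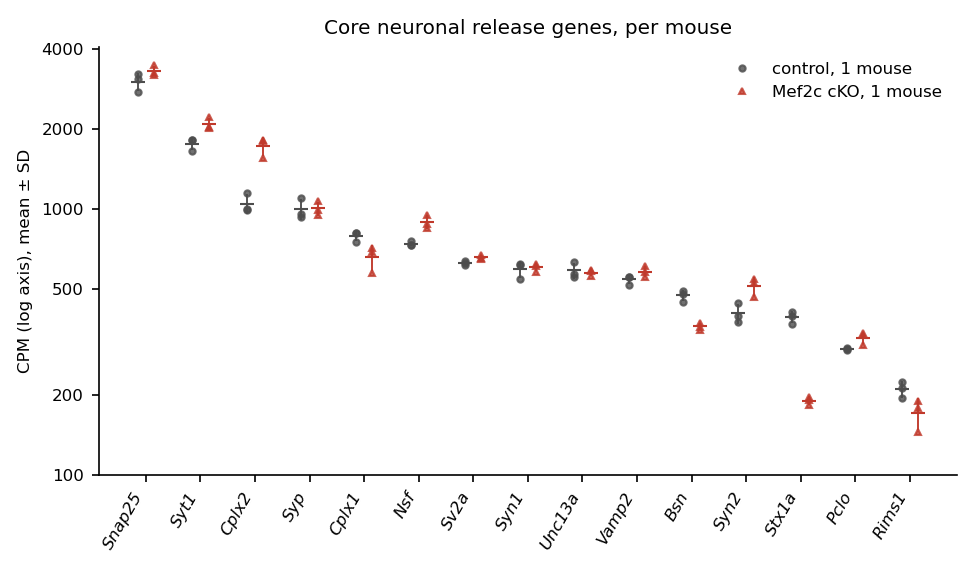
Level (CPM, log axis) of 15 core neuronal release genes in the 3 control (circles) and 3 *Mef2c* cKO (triangles) mice, with horizontal marks at the mean and bars of 1 SD, ordered by control level. *Stx1a* and *Bsn* lie lower and *Cplx2* and *Syn2* higher in *Mef2c* cKO mice, and the other 11 genes did not pass both cut-offs.

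The sequence before the annotated gene start was read from the mm9 genome and searched for known binding sequences. MEF2 proteins bind an A/T-rich consensus, here searched on both strands. In the 1000 bases before the start this consensus occurred in 9 of 75 release genes with a single annotated place (12.0%) and in 12.3% of 13116 tested genes, and 2 of the 22 called genes held it, *Stxbp6* and *Syt10*. The matches are shown with 12 bases on either side, together with both matches of *Rims1*, since these are the called genes and the RIM gene that hold it. Each is written 5′ to 3′ on the gene's strand, with the consensus in capitals.
Stxbp6: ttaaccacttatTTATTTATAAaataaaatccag
Syt10: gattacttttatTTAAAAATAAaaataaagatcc
Rims1, distal: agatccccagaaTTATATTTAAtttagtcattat
Rims1, proximal: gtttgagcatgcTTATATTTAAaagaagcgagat
They lie at chr12:46175941-46175974, chr15:89672623-89672656, chr1:22912520-22912553 and chr1:22912065-22912098, all on the minus strand, and the matches end 472, 343, 858 and 403 bases before the gene start. *Stxbp6* was decreased and *Syt10* increased, so the called genes with a match did not share a direction. Within 250 bases no release gene held the consensus, against 1.9% of all genes.

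The cAMP response element TGACGTCA, searched on both strands, occurred in the 1000 bases before 3 of the 75 genes, *Snap25*, *Syn1* and *Vamp3*, and before 3.21% of all genes. None of these 3 was called, and 0 had an unadjusted p under 0.05 with limma. *Snap25* and *Syn1* are shown as core genes whose genotypes overlapped.
Snap25: attaaaagctgcTGACGTCAaaggaacggc
Syn1: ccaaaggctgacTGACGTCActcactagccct
The window of *Snap25* is chr2:136539159-136539188 (plus strand) and that of *Syn1* is chrX:20498184-20498215 (minus strand). The 250 bases before *Stx1a* (chr5:135499102-135499351, plus strand), the called gene among the core SNAREs, follow with the GC box GGGCGG, searched on both strands, in capitals.
Stx1a: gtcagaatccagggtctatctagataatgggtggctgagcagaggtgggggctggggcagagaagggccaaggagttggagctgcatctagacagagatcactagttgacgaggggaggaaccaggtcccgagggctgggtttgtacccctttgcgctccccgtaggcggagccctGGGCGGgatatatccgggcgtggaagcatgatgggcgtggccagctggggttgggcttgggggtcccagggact
They hold 1 GC box and are 62.0% G and C, and 53.7% of all genes and 13 of the 22 called genes held a GC box in this window. A match is a description of letters and not evidence of binding.

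Among the other syntaxins, of which 13 genes in all were tested, none besides *Stx1a* was called by limma (3 at an unadjusted p under 0.05). Their highest fold change was that of *Stx2*, at 26.8, 34.7 and 34.8 CPM in controls and 38.1, 40.8 and 40.1 CPM in *Mef2c* cKO mice (0.32 ± 0.10, adjusted p = 0.0718). None of the 5 SNAP genes and none of the 6 VAMP genes tested was called by limma (1 and 2 at an unadjusted p under 0.05). Their fold changes ran from -0.20 (*Snap47*) to 0.15 (*Snap29*) for the SNAP genes and from -0.26 (*Vamp1*) to 0.20 (*Vamp4*) for the VAMP genes. *Snap47* (adjusted p = 0.0471) and *Vamp4* (adjusted p = 0.0424) were past the threshold on p alone, which each kept in 5 of 17 alternatives.

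Of the 7 syntaxin-binding genes only *Stxbp6* was called. It encodes amisyn, which carries a SNARE motif and competes with VAMP for syntaxin. *Stxbp6* (chr12:45953475-46175480, minus strand), whose MEF2 consensus is printed above, was at 88.4, 85.1 and 93.7 CPM in control mice and at 27.2, 29.2 and 27.3 CPM in *Mef2c* cKO mice, which is 31.3% of control (log2 fold change -1.67 ± 0.07, adjusted p = 1.77e-06). The spread within each genotype was small beside this difference. *Stxbp2* (Munc18-2) had the second highest fold change among the genes not called, 0.32 ± 0.32 (adjusted p = 0.565), and it turned on 1 library: control replicate 1 was at 20.1 CPM, the other controls were at 53.1 and 47.5 CPM, and the *Mef2c* cKO mice were at 57.8, 43.0 and 39.5 CPM. Without that library its log2 fold change was -0.12.

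Of the complexins only *Cplx2* was called. Complexin binds the assembled SNARE complex and both clamps and promotes fusion. *Cplx2* (chr13:54472713-54485278, plus strand) rose from 999, 1154 and 994 CPM in controls to 1562, 1820 and 1806 CPM in *Mef2c* cKO mice (log2 fold change 0.72 ± 0.09, adjusted p = 0.000484). *Cplx1* (chr5:108947573-108979043, minus strand) was at 812, 751 and 813 CPM against 576, 689 and 716 CPM. Every *Mef2c* cKO mouse was lower for *Cplx1*, but the fold change of -0.27 ± 0.09 did not pass (adjusted p = 0.0663). Per kilobase of exon, the mean level of *Cplx1* was 362 in controls and 302 in *Mef2c* cKO mice, and that of *Cplx2* was 213 and 351, so the order of the pair was turned round in the *Mef2c* cKO means.

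Synaptotagmins are vesicle proteins, many of which bind calcium through paired C2 domains. Of 16 genes tested, 5 were decreased, 3 were increased and 8 were not called. Among the fast calcium sensors, *Syt2* and *Syt9* were decreased. *Syt2* (chr1:136605877-136649726, plus strand), the sensor of fast-spiking interneurons in cortex, was at 60.5, 44.1 and 50.7 CPM in controls and at 18.2, 23.3 and 24.4 CPM in *Mef2c* cKO mice (log2 fold change -1.23 ± 0.14, adjusted p = 0.000304). The genotypes did not overlap although the controls varied by 8.27 CPM (SD). *Pvalb*, a marker of those interneurons, was at 62.7, 57.2 and 60.9 CPM against 31.5, 39.3 and 33.5 CPM (-0.80 ± 0.09, adjusted p = 0.000299). It was the only decreased gene of 14 interneuron markers, and *Sst*, *Npy* and *Cck* were increased. *Kcnc1* (-0.01, limma adjusted p = 0.922) and *Lhx6* (-0.08, limma adjusted p = 0.589), from the same list, were not called. The part of *Pvalb* cells in the *Syt2* result was not tested. *Syt9* was a minor gene, at 5.79, 7.41 and 6.00 CPM in controls and 3.21, 3.47 and 3.29 CPM in *Mef2c* cKO mice (-0.92 ± 0.14, adjusted p = 0.00152).

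*Syt1*, the main fast sensor of forebrain neurons, went the other way by a small step. It was at 1813, 1827 and 1652 CPM in controls and at 2020, 2228 and 2041 CPM in *Mef2c* cKO mice, and was past the adjusted p (0.0465) but under the fold change cut-off at 0.25 ± 0.07. This pass was kept in 3 of 17 alternatives, with adjusted p up to 0.139 outside the deposited RPKM. *Syt7*, a slow sensor of high calcium affinity that serves asynchronous release and facilitation, fell from 390.2, 476 and 429 CPM to 297, 296 and 278 CPM (log2 fold change -0.57 ± 0.08, adjusted p = 0.000889). The 3 *Mef2c* cKO mice lay close together and all below the lowest control. *Doc2a* (chr7:133990930-133996219, plus strand) encodes a further high-affinity sensor, tied to spontaneous and asynchronous release. It fell from 74.6, 70.5 and 72.4 CPM to 25.0, 23.1 and 30.7 CPM, or 36.3% of control (-1.47 ± 0.10, adjusted p = 1.75e-05). Its paralog *Doc2b* was lower in every *Mef2c* cKO mouse as well, at 8.67, 4.66 and 9.72 CPM against 12.8, 12.0 and 10.2 CPM, but the spread was wide and the difference did not pass (-0.66 ± 0.24, adjusted p = 0.104).

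Synaptotagmins that do not bind calcium were called in both directions. *Syt13* fell from 349, 323 and 318 CPM to 243, 240.5 and 275 CPM (log2 fold change -0.38 ± 0.07, adjusted p = 0.00466), a call lost among the 12-week-old mice alone, and *Syt12* rose from 62.0, 65.5 and 60.1 CPM to 76.0, 83.3 and 85.3 CPM (0.38 ± 0.07, adjusted p = 0.00388). *Syt17*, also known as B/K protein, was at 22.2, 29.3 and 24.1 CPM in controls and at 15.1, 8.02 and 14.5 CPM in *Mef2c* cKO mice. Its fold change of -1.05 ± 0.22 was less precise than those of the other genes of this size, with replicate 2 of the *Mef2c* cKO mice lowest (adjusted p = 0.0111).

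The remaining called synaptotagmins were higher. *Syt10*, a calcium sensor for the secretion of IGF-1 in olfactory bulb neurons, was scarce in control cortex at 3.20, 3.79 and 2.97 CPM and rose to 10.3, 6.21 and 8.20 CPM (log2 fold change 1.26 ± 0.19, adjusted p = 0.0016). *Syt5* rose from 103, 105 and 102 CPM to 148, 139 and 162 CPM (0.53 ± 0.06, adjusted p = 0.000508). For both genes all *Mef2c* cKO mice were above all controls. *Syt4* was past the adjusted p (0.0271), kept in 9 of 17 alternatives, at a log2 fold change of -0.27 ± 0.07, and the other 6 synaptotagmins tested besides *Syt1* had fold changes between -0.03 (*Syt14*) and 0.31 (*Syt6*).

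The synaptotagmin-like genes encode Rab27 effectors of secretory granules. *Sytl1* (chr4:132809005-132819028, minus strand) had the lowest fold change at the pseudocount of 0.1 and few reads. It was at 2.88, 2.57 and 2.17 CPM in controls, from 98, 127 and 112 reads, and at 0.305, 0.362 and 0.369 CPM in *Mef2c* cKO mice, from 10, 7 and 20 reads (log2 fold change -2.56 ± 0.20, adjusted p = 3.48e-05). *Sytl1* entered the test through its control level alone, and no other called release gene passed the filter in a single genotype. At a pseudocount of 1 its fold change was -1.39, smaller than those of *Stxbp6* (-1.64), *Rims3* (-1.54) and *Doc2a* (-1.44). *Sytl2* was far more abundant and fell from 154, 165 and 182 CPM to 85.9, 122 and 111 CPM (-0.66 ± 0.12, adjusted p = 0.00496). *Sytl5* was at 2.21, 2.94 and 3.14 CPM against 3.76, 3.73 and 3.29 CPM, the highest fold change among the tested genes that were not called (0.38 ± 0.17, adjusted p = 0.169).

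**Figure D3:**
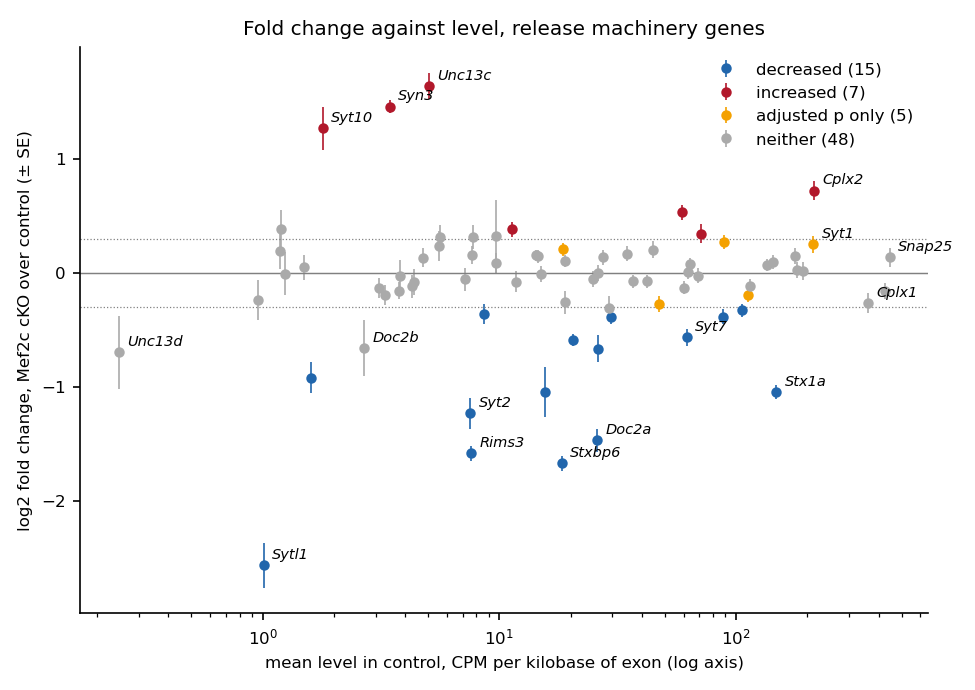
Log2 fold change (*Mef2c* cKO over control, bars ± 1 SE) against the mean control level (CPM per kilobase of exon, log axis) of 75 of the 76 genes tested, all but *Stxbp3*, which had no single place in the annotation. Dotted lines mark 0.3 in either direction; decreased genes run from *Sytl1* at the left to *Stx1a* at the right, and increased genes from *Syt10* to *Cplx2*.

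At the active zone, the RIM genes all had negative fold changes. RIM proteins bind Rab3, Munc13 and calcium channels and so place vesicles next to the site of calcium entry. *Rims3* (chr4:120527421-120569184, plus strand), which encodes a short RIM with only the last C2 domain, fell from 61.5, 58.3 and 62.2 CPM to 20.2, 20.9 and 19.5 CPM (log2 fold change -1.58 ± 0.07, adjusted p = 1.85e-06). The values within each genotype agreed closely, and the *Mef2c* cKO mean was 33.3% of control. *Rims2* (chr15:39029878-39513486, plus strand) fell from 112, 107 and 114 CPM to 71.1, 76.3 and 73.4 CPM (-0.59 ± 0.06, adjusted p = 0.000136). *Rims1*, the most abundant of the family per kilobase, was at 194, 213 and 225 CPM against 178, 191 and 145 CPM (-0.30 ± 0.10, adjusted p = 0.0727), and *Rims4* had a fold change of -0.20 (adjusted p = 0.183). These last 2 genes were lower in every *Mef2c* cKO mouse but did not pass.

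Of the large active zone scaffolds only *Bsn* was called. *Bsn* (Bassoon; chr9:107998354-108092715, minus strand) fell from 493, 480.4 and 447 CPM to 374, 361 and 352 CPM (log2 fold change -0.39 ± 0.06, adjusted p = 0.00188). *Pclo* (Piccolo) was at 298, 299.9 and 295 CPM in controls and 342, 337 and 309 CPM in *Mef2c* cKO mice, higher in each of them, with 0.14 ± 0.06 and adjusted p = 0.132. A difference in *Pclo* was therefore not shown.

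Munc13 proteins open syntaxin and prime vesicles, and their genes went in different directions. *Unc13a* (Munc13-1), the main priming factor of cortical glutamatergic synapses, was at 558, 635 and 572 CPM in controls and 583, 589 and 559 CPM in *Mef2c* cKO mice (log2 fold change -0.03 ± 0.06, adjusted p = 0.84). *Unc13b* (Munc13-2) fell from 103, 124 and 122 CPM to 92.3, 95.5 and 83.5 CPM (-0.36 ± 0.09, adjusted p = 0.0194). This call was kept in 12 of 17 alternatives. It was lost without control replicate 2, without control replicate 3, without *Mef2c* cKO replicate 3, without a variance trend and on the deposited RPKM. *Unc13c* (Munc13-3; chr9:73328677-73781374, minus strand), best known from the cerebellum, rose from 33.0, 32.3 and 34.7 CPM to 84.4, 120.4 and 110.0 CPM, or 315% of control, the highest fold change of all release genes (1.64 ± 0.12, adjusted p = 2.17e-05). Per kilobase of exon *Unc13c* stood below *Unc13b* in controls, at 5.03 and 8.61, and above it in *Mef2c* cKO mice, at 15.8 and 6.70. *Unc13d* (Munc13-4), a gene of blood cells, was near the limit of the test at 1.06, 1.23 and 1.18 CPM against 0.366, 0.724 and 1.11 CPM (-0.70 ± 0.32, adjusted p = 0.193).

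The synapsins, which tether vesicles to each other and to actin, all had positive fold changes, that of *Syn1* turning to -0.0363 without control replicate 3. *Syn3* (chr10:85517870-85961641, minus strand), best known from developing neurons, rose from 41.3, 40.6 and 44.7 CPM to 117, 114 and 117 CPM, or 275% of control (log2 fold change 1.46 ± 0.06, adjusted p = 1.82e-06). *Syn2* rose from 397, 444 and 376 CPM to 548, 466 and 528 CPM (0.34 ± 0.08, adjusted p = 0.0208). This was the least stable of the 22 calls, kept in 8 of 17 alternatives. It was lost without control replicate 1 or 3 and without *Mef2c* cKO replicate 1 or 3. The call was also lost among the 12-week-old mice alone, without a variance trend, with a replicate block, with 1 possible length and on the deposited RPKM. *Syn1* was at 619, 623 and 546 CPM against 624, 612 and 582 CPM, with overlapping genotypes (0.03 ± 0.07, adjusted p = 0.847). Exons of *Syn3* overlap *Timp3* on the other strand, and *Timp3* had a fold change of 0.14 (adjusted p = 0.164). Exons of *Doc2a* overlap *Ino80e* in the same manner, which had 0.12 (adjusted p = 0.495). Exons of *Bsn*, *Syt7*, *Syt12* and *Sv2b* overlap a less studied gene on the other strand. Whether the counting used the strand is not given in the sources used here.

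Of the SV2 genes, *Syp* and the synaptogyrins, only *Sv2b* was called. SV2 proteins are vesicle glycoproteins with a transporter fold that bind synaptotagmin. *Sv2b* fell from 622, 596 and 586 CPM to 461, 471 and 506 CPM (log2 fold change -0.33 ± 0.06, adjusted p = 0.00469), and the call was lost among the 12-week-old mice alone. *Sv2a* was at 639.8, 625 and 618 CPM against 656, 649 and 671 CPM (0.07 ± 0.05, adjusted p = 0.436). *Syp* (synaptophysin), often used to count presynaptic terminals, was at 961, 1100 and 934 CPM in controls and 1074, 993 and 952 CPM in *Mef2c* cKO mice (0.01 ± 0.08, adjusted p = 0.939). The synaptogyrins *Syngr1* and *Syngr3* had fold changes of -0.12 and 0.20 and were not called.

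Over the whole list, 54 genes were tested and not called. Their fold changes were negative for 26 and positive for 28, and 47 of them lay within 0.3 of 0 in either direction. A further 9 genes were not tested: *Syngr2*, *Syt8* and *Vamp7* were listed at 0 in all 6 mice, *Cplx4*, *Stx19* and *Syngr4* had at most 4 reads in any mouse, and *Stx11*, *Sytl3* and *Sytl4* had at most 24. The lowest adjusted p values belonged to *Stxbp6*, *Syn3* and *Rims3*, each with close replicates in both genotypes.

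The share of each pair's reads that fell on the first gene was computed in every mouse, which does not depend on the total used for CPM. These shares come from the same reads as the values above and are a second description of them, not further evidence. *Cplx1* took 44.8%, 39.4% and 45.0% of the complexin-1 and complexin-2 reads in controls and 27.0%, 27.5% and 28.4% in *Mef2c* cKO mice. This share was thus lower in each *Mef2c* cKO mouse than in any control, by 15.5 percentage points on average. *Bsn* took 61.4% ± 1.05 (SD, n = 3) of the *Bsn* and *Pclo* reads in controls and 52.4% ± 0.75 in *Mef2c* cKO mice. *Doc2a* took 86.1% ± 1.31 of the pair with *Doc2b* against 77.8% ± 4.76, and *Syn1* took 59.5% ± 1.28 of the pair with *Syn2* against 54.1% ± 2.30. In the other direction, *Sv2a* took 51.1% ± 0.33 of the pair with *Sv2b* in controls and 57.9% ± 0.84 in *Mef2c* cKO mice, *Unc13a* took 83.5% ± 1.04 against 86.5% ± 0.49 of the pair with *Unc13b*, and *Syt1* took 97.1% ± 0.45 against 99.0% ± 0.14 of the pair with *Syt2*. With 3 mice against 3, the exact two-sided permutation test cannot go below p = 0.10, which each of the 7 pairs given reached (0.143 after Benjamini-Hochberg adjustment over the 10 pairs), so none could pass. *Vamp1* of the pair with *Vamp2*, *Snap23* of the pair with *Snap25* and *Rims1* of the pair with *Rims2* had overlapping genotypes.

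**Figure D4:**
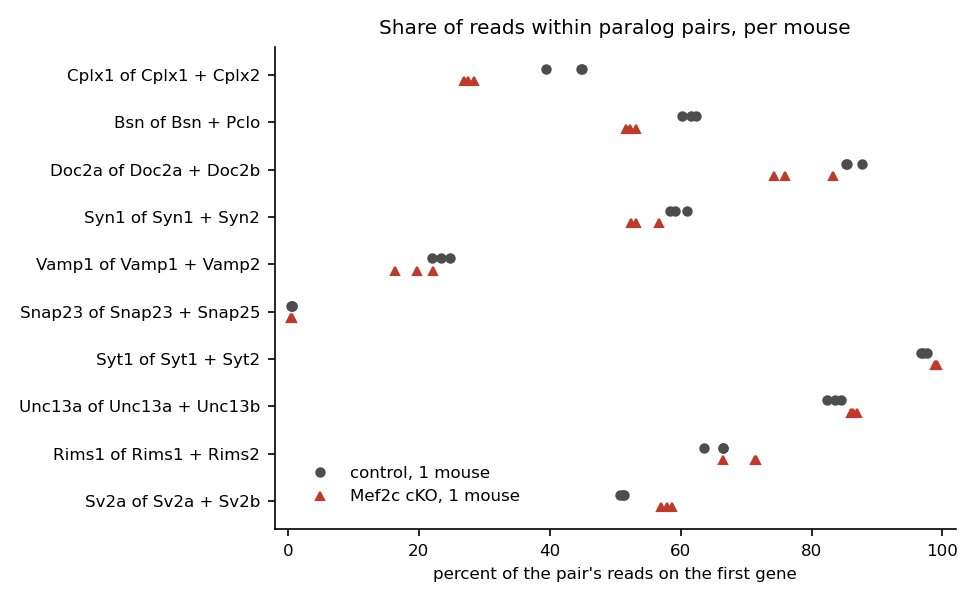
Percentage of the reads of each of 10 paralog pairs that fell on the first gene named, with 1 point per mouse (circles control, triangles *Mef2c* cKO). The share of *Cplx1* shows the widest gap between genotypes, and those of *Vamp1*, *Snap23* and *Rims1* overlap.

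Other genes of the presynaptic cycle were given by 3 lists. Of 37 tested SNARE and priming partners 4 were decreased and 3 increased, with a median log2 fold change of 0.03. *Synpr*, which encodes the vesicle protein synaptoporin, fell from 85.2, 106 and 79.5 CPM to 59.6, 50.2 and 68.4 CPM (-0.60 ± 0.13, adjusted p = 0.012). The liprin gene *Ppfia4* and *Rimbp2*, whose product links RIM to calcium channels, had fold changes of -0.41 and -0.34. *Cadps2*, which encodes a priming factor of dense-core vesicles, rose from 229, 209.9 and 197 CPM to 286, 345 and 341 CPM (0.61 ± 0.09, adjusted p = 0.00118), and *Ppfia3* and the scarce *Sncg* had 0.40 and 0.89. *Sncg* was at 0.676, 0.607 and 0.388 CPM in controls and at 1.22, 1.24 and 0.868 CPM in *Mef2c* cKO mice. It entered the test through its *Mef2c* cKO level alone, so its place among the 3 increased genes is not independent of the filter. Of the endocytosis and recycling genes 2 were decreased and 0 increased of 34 tested with limma (median 0.07), although 5 were higher at an unadjusted p under 0.05. The decreased genes were *Synj2*, a phosphoinositide phosphatase, which fell from 144, 130.2 and 132 CPM to 89.0, 68.7 and 89.0 CPM (-0.73 ± 0.10, adjusted p = 0.00107), and *Fcho1*, an early factor of clathrin pits, at -0.63 ± 0.07 (adjusted p = 0.000425). Of 22 vesicle filling genes tested 2 were decreased and 1 was increased (median -0.00). *Slc17a6* and *Slc17a8*, which encode the glutamate transporters VGLUT2 and VGLUT3, had -0.59 and -0.52, from control means of 33.7 and 5.17 CPM. The far more abundant *Slc17a7* of the same list was not called. Its mean was 1191 CPM in controls and 1241 CPM in *Mef2c* cKO mice (0.06, limma adjusted p = 0.591). *Slc30a3*, which encodes the zinc transporter ZnT3 of cortical vesicles, had 0.44. The 7.78% and 5.88% over all genes are the background of these counts too. *Scamp3* was listed at 0 in all 6 mice and *Slc18a1*, *Slc18a2* and *Slc18a3* had too few reads, so these were not tested.

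Cell type markers were examined beside these results, and no marker was at 0. Of 14 pyramidal neuron markers 4 were decreased and 4 increased, with summed levels of 5977 to 7107 CPM in controls and 6162 to 7198 CPM in *Mef2c* cKO mice. The decreased markers include *Emx1*, at 28.4% of control. Cre was inserted into the endogenous *Emx1* gene, so this gene differs between the genotypes by design and its level cannot serve as a cell marker here. Of 14 interneuron markers 1 was decreased (*Pvalb*) and 3 increased, at 1422 to 1556 CPM against 1607 to 1755 CPM. Of 8 markers of all neurons 2 were increased, at 5987 to 6734 CPM against 7155 to 7501 CPM, a sum that includes *Snap25*. The summed level of pyramidal markers thus overlapped between genotypes, and that of all neurons was higher in every *Mef2c* cKO mouse. The interneuron sum was higher in every *Mef2c* cKO mouse through *Cck*, without which it was 1180 to 1292 CPM against 1225 to 1285 CPM and overlapped. Of 8 oligodendrocyte markers 3 were increased, at 3145 to 5179 CPM against 5100 to 6532 CPM. All 8 were higher at an unadjusted p under 0.05 with limma. Of 8 astrocyte markers 1 was decreased and 2 increased, at 4132 to 4418 CPM against 3643 to 3912 CPM. The astrocyte sum was lower through *Slc1a2* and without it turned round, at 829 to 845 CPM against 898 to 1040 CPM, and the oligodendrocyte sum without *Mbp* was 1635 to 2685 CPM against 2789 to 3602 CPM and did not overlap. These omissions, of the marker in each list that differed most in CPM, were chosen after seeing the data, and in the other lists they did not change whether the genotypes overlapped. With limma 0 microglia and 0 endothelial markers were called (3 and 1 lower at an unadjusted p under 0.05), at 220.1 to 244.6 CPM against 204.9 to 215.1 CPM and at 251 to 282 CPM against 241 to 256 CPM. The part of these levels in the results on release genes was not tested.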

How the data were processed

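Cortical polyA RNA of 6 mice was sequenced with a directional kit. The authors aligned reads to mm9 with TopHat and Bowtie, counted them per gene with HTSeq and deposited RPKM values, one file per mouse. Versions and the strand setting of the counting are not given in the sources used here. The values proved to be whole reads divided by a length and by the library total, with lengths that run in a repeating order unrelated to the gene. The reads were recovered from this order (99.82% to 99.84% of values above 0, 99.95% to 99.96% of reads). Rows without a gene name (92, at most 0.0776% of reads) were left out.

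Levels are CPM of all recovered totals. Log2(CPM + 0.1) was fitted on genes above 0.5 CPM in every mouse of a genotype with limma 3.58.1 (R 4.3.3, with a variance trend) on both genotypes without covariates. A call needed a Benjamini-Hochberg adjusted p under 0.05 over all 14607 genes and a log2 fold change beyond 0.3. Fold changes are on the log2(CPM + 0.1) scale, which understates the change of low genes, and errors after them are SE. Tests were two-sided. Recovery and fit were tested on simulated data. Shares used scipy 1.17.1.

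The text gives every called gene, 15 core release genes, the 3 highest and 3 lowest fold changes among genes not called and, of the other lists, called genes. Genes and lists were chosen with earlier results of these data known. A few further genes that bound a family's range were named after their values were seen. Some genes are not reported here.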

Additional observations from a re-analysis of the deposited data

How the results depend on the processing

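Among the 12-week-old mice alone 13 release genes were decreased and 6 increased, beside 899 and 573 of all 14759 genes tested. Without a variance trend 14 and 6 were, beside 1030 and 755 of all 14607 genes. Another CPM minimum, no minimum, median ratio scaling and pseudocounts of 0.5 and 1 left 15 and 7, the same genes. Over all genes, of which 13883 to 18309 were tested, these settings gave 1095 to 1156 decreased and 822 to 861 increased. With each mouse left out in turn there were 14 to 16 decreased and 6 to 9 increased release genes, and 0.66 to 0.79 for *Mef2c*. These counts include genes outside the 22 calls, namely *Cplx1*, *Cplx3*, *Doc2b*, *Nsf*, *Rims1*, *Syt4* and *Syt6*, while *Syn2* and *Unc13b* were lost in some fits. Over all genes, of which 14633 to 14731 were tested, these fits gave 892 to 1081 decreased and 686 to 870 increased. Mice with the same replicate number did not deviate together (r of -0.18, -0.11 and -0.08 over 14607 genes). The paper's controls were littermates of the *Mef2c* cKO mice. Deviations from the means of 3 mice cannot show whether the replicate numbers pair them. With a replicate block 15 release genes were decreased and 6 increased, the call of *Syn2* being lost, beside 973 and 722 of all 14607 genes. Restricted to genes whose reads rest on 1 possible length, 61 release genes were testable and 13 and 5 were called, beside 858 and 657 of all 12385 genes. Of the 22 calls 18 could be fitted there and only *Syn2* was lost, while *Nsf* was gained. The 22 calls kept their direction in every alternative in which they could be fitted other than the deposited RPKM.

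On the deposited RPKM, whose lengths differ between mice, 0 release genes were decreased and 0 increased with limma, against 5 and 9 of all 7974 genes tested there, and *Mef2c* had 0.0164. Fold changes of opposite sign there were 1.09 for *Cplx1*, -0.72 for *Cplx2*, -0.0842 for *Pclo*, 2.80 for *Rims1*, -0.95 for *Snap25*, -0.87 for *Sv2a*, -0.25 for *Syp*, -0.57 for *Syt12*, 3.04 for *Syt13*, -3.41 for *Syt5*, 0.0933 for *Syt7* and 0.31 for *Unc13a*. Other reversals were of genes not called: *Stxbp2* -0.28 and *Syp* -0.0602 among 12-week-old mice, *Stxbp2* -0.0093 with 1 possible length, and, leaving out 1 mouse, ranges of -0.12 to 0.58 for *Stxbp2*, -0.0348 to 0.0851 for *Syp*, -0.0628 to 0.0304 for *Unc13a* and -0.0363 to 0.0597 for *Syn1*. The cause of these was not tested. Depth limits the genes under 0.5 CPM, which were not tested.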
